A study of Caenorhabditis elegans with 9 samples.

Results

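The genes described here are 8 cathepsin D-like aspartyl protease genes of Caenorhabditis elegans, asp-1, asp-2, asp-3, asp-4, asp-5, asp-6, asp-13 and asp-14. They were picked by gene symbol from the 13246 genes listed in at least 1 library, and the choice also drew on measured values, because asp-13 moves in opposite directions in the 2 depletions compared. Each of the 8 was listed in all 9 libraries and each passed the filter on low counts. The differences of these genes between depleted animals and controls, and between the depletions, are therefore a description. No p-value is given for them, and where a gene is said to be past the threshold of the fit over all genes, that places its estimate in the fit and is no independent evidence. The change between the 2 control times is the one that is tested.

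Aspartyl proteases of this family cut proteins with a pair of aspartate residues in the active site. They are made as inactive precursors, pass through the secretory pathway and become active in acidic compartments, above all the lysosome, whose acidity is kept by the proton pump V-ATPase. In worms the intestine is rich in lysosome-related organelles and also secretes proteases into its lumen to digest food, and cathepsin D-like enzymes work beside the cysteine cathepsins in both places. Of the genes described here, asp-1 is known for its expression in the intestine, and asp-3 and asp-4 are known for their part in the necrotic death of worm neurons.

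RNA from whole worms was sequenced to ask how loss of RPOA-2, a core subunit of RNA polymerase I, acts on gene expression when the protein is removed everywhere or mainly in the hypodermis. Every strain carried degron::GFP::rpoa-2, a fusion that is destroyed when the plant protein TIR1 and the auxin IAA are both present. The 18 h controls (n = 2) and the 24 h controls (n = 2) carried the fusion alone and received no IAA. Hypodermal depletion (n = 3) added col-10p::TIR1, driven by a promoter of hypodermal cells, and global depletion (n = 2) added eft-3p::TIR1, driven by a promoter active in most tissues, and both were kept on 1 mM IAA for 24 h. Animals were grown at 16 °C from synchronized eggs. The titles say embryo and give no stage at harvest. The controls held neither TIR1 nor IAA, so what these do by themselves and what depletion does cannot be told apart.

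Library totals ran from 166455 to 506659 counts in the controls and from 781648 to 2134185 in the depleted animals, so the controls are the less precise side of each comparison. In the least deep library, 18 h control replicate 2, the smallest listed count of 3 stood for 18.1 CPM (counts scaled to a common library total of 1e6 with TMM factors), and in the deepest, hypodermal replicate 1, for 1.44 CPM. The mRNA of rpoa-2 lay between 155.9 and 369.2 CPM over the 9 libraries; the degron acts on the protein, so this level does not check the depletion. Summed vitellogenin mRNA, a mark of adult intestine, was at most 14.8 CPM. Replicates of each group differed by more than counting noise. The labels do not say that they are separate cultures, and the spread behind each p-value may be technical. In whole animals, fewer cells of a type and less RNA per cell cannot be told apart.

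Together the 8 genes supplied between 1.09% and 1.91% of the counts of a library. Per kilobase of coding sequence asp-1 stood highest, with a mean of group means of 5792 CPM per kb, followed by asp-6 at 2120 and asp-3 at 1827 CPM per kb. A middle group held asp-5 at 812, asp-2 at 681 and asp-14 at 301 CPM per kb. The lowest levels were those of asp-4 at 63.1 and asp-13 at 52.8 CPM per kb. The order was not sharp between asp-6 and asp-3, where asp-6 was higher in 7 of 9 libraries, between asp-5 and asp-2, where asp-5 was higher in 8 of 9, or between asp-4 and asp-13, where asp-4 was higher in 5 of 9. By contrast asp-1 exceeded asp-6 in 9 of 9 libraries, by a ratio of 2.18 to 3.74. The 6 more abundant genes varied little over the libraries, their highest level being between 1.71 and 2.35 times their lowest, whereas this ratio was 7.01 for asp-4 and 23.6 for asp-13.

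**Figure D1:**
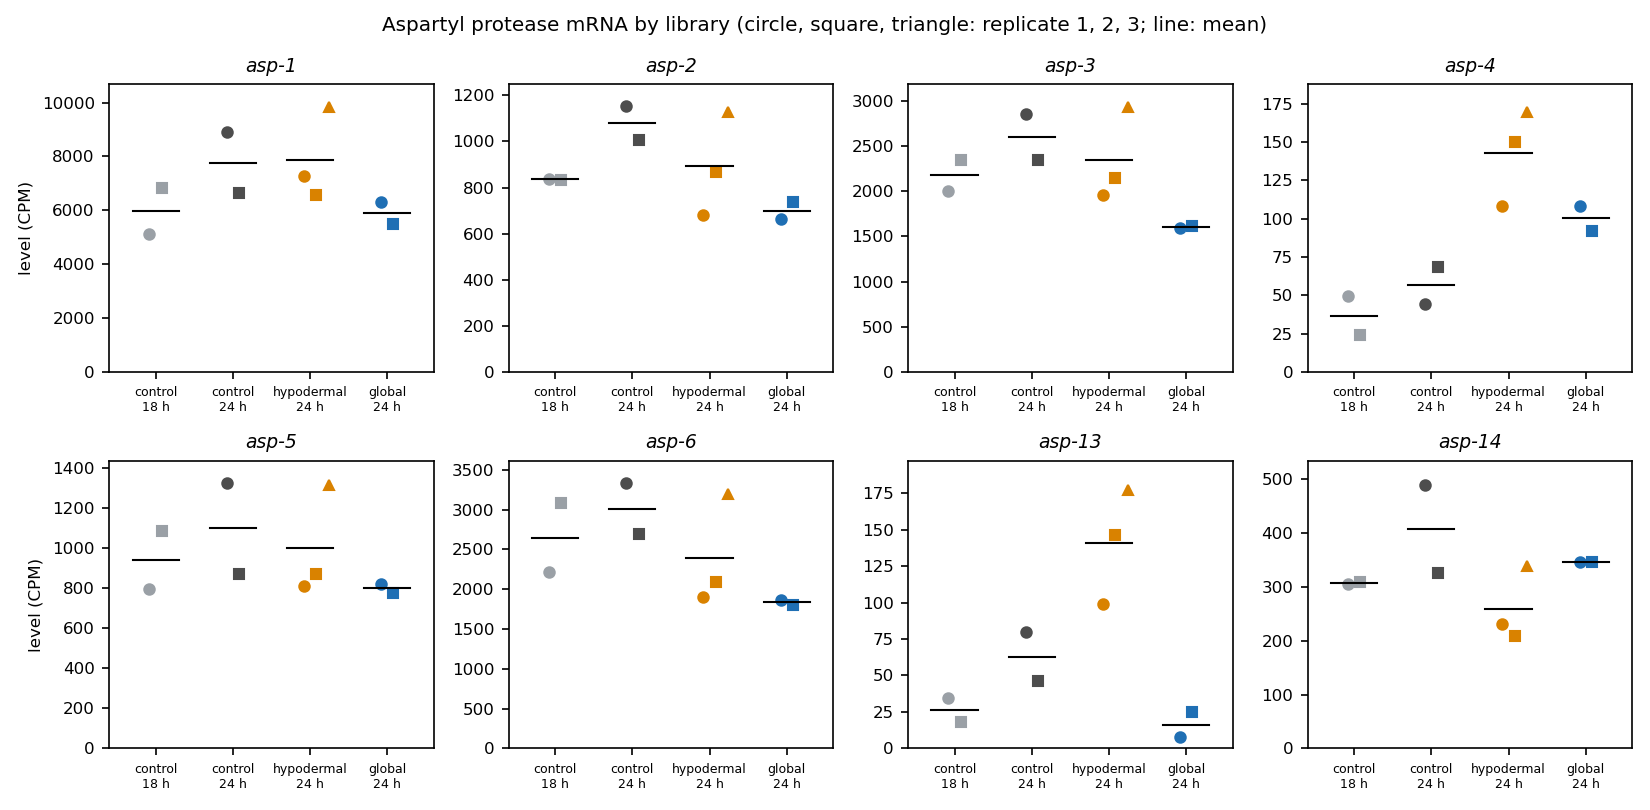
Level of each of the 8 aspartyl protease genes (CPM, linear axis from 0) in the 9 libraries, by group, with circle, square and triangle for replicates 1, 2 and 3 and a line at the group mean. The asp-13 libraries of hypodermal depletion lie at 99.1 CPM and above and those of global depletion at 25 CPM and below, while asp-4 is at 92.1 CPM or above in all 5 depleted libraries and at 68.5 CPM or below in all 4 controls.

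The gene asp-13 lies on chromosome V at 8641501 to 8643225 on the minus strand of WBcel235, with 7 exons. The 24 h controls read 79.6 and 46.3 CPM, the hypodermal libraries 99.1, 147 and 178 CPM, and the global libraries 7.54 and 25 CPM. In the 18 h controls it read 34.5 and 18.1 CPM. The 3 hypodermal libraries stood above all other libraries, and both global libraries stood below both 24 h controls but overlapped the 18 h controls. Means were 62.9 ± 23.5 CPM (SD, n = 2) at 24 h, 141 ± 39.5 (n = 3) in hypodermal depletion and 16.2 ± 12.3 (n = 2) in global depletion. The fitted log2 fold change against the 24 h controls was 1.19 (SE 0.36) in hypodermal and −1.93 (SE 0.45) in global depletion. Hypodermal over global depletion gave 3.12 (SE 0.37), which is 8.69-fold.

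The counts behind these levels are small outside hypodermal depletion. There were 7 and 3 counts of asp-13 in the 18 h controls, 25 and 23 in the 24 h controls and 10 and 29 in global depletion, against 206, 219 and 137 in hypodermal depletion. Exact Poisson 95% intervals, which cover counting error only, ran from 51.5 to 117 CPM and from 29.4 to 69.5 CPM in the 24 h controls. They ran from 3.61 to 13.9 CPM in global replicate 1 and from 16.7 to 35.8 CPM in replicate 2, and from 86 to 210 CPM over the 3 hypodermal libraries. The interval of 24 h control replicate 1 overlaps that of hypodermal replicate 1, and the interval of 24 h control replicate 2 overlaps that of global replicate 2. Without 24 h control replicate 1 the global difference was −1.55 and no longer past the threshold, without global replicate 1 it was −1.31 and likewise not past it, and without global replicate 2 it was −2.98. The hypodermal difference was 0.79 without 24 h control replicate 2, 1.12 without hypodermal replicate 2 and 1.01 without hypodermal replicate 3, none of them past the threshold.

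**Figure D2:**
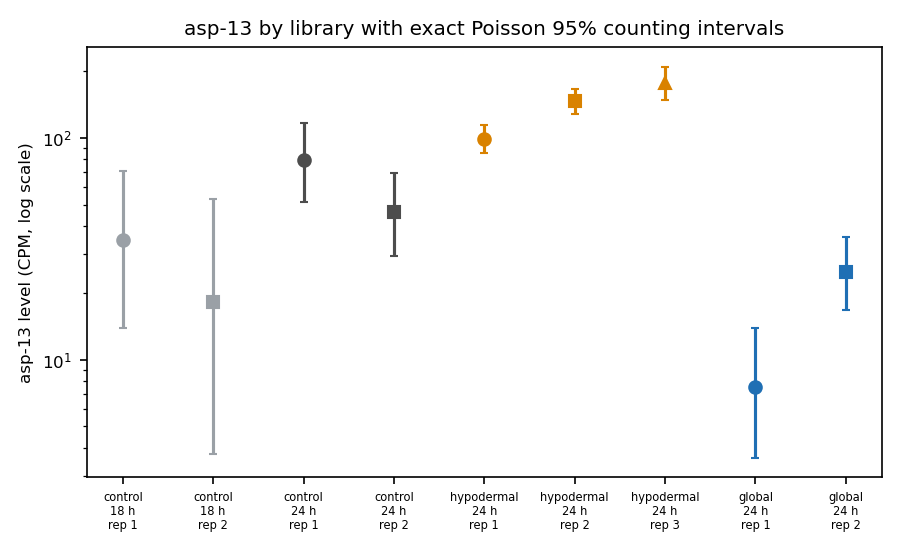
Level of asp-13 in each of the 9 libraries (CPM, log axis), with bars for the exact Poisson 95% interval of its count. The intervals of the 3 hypodermal libraries, from 86 to 210 CPM, do not meet those of the 2 global libraries, from 3.61 to 35.8 CPM. The 24 h control levels lie between, but their intervals overlap those of hypodermal replicate 1 and global replicate 2.

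The gene asp-4, the cathepsin D relative with a known role in necrosis, was higher in both depletions. It lies on chromosome X at 13218977 to 13221462, minus strand, with 6 exons. Its levels were 49.3 and 24.2 CPM at 18 h and 44.6 and 68.5 CPM at 24 h without depletion, against 108, 150.1 and 170 CPM in hypodermal and 109 and 92.1 CPM in global depletion. Every depleted library was thus above every control, and the hypodermal and global libraries overlapped. The log2 fold change against the 24 h controls was 1.28 (SE 0.32) in hypodermal and 0.79 (SE 0.34) in global depletion. The latter was not past the threshold. Against the 18 h controls, at the other control time, it was 1.90 (SE 0.42) and 1.41 (SE 0.44). The control counts of asp-4 were between 4 and 34, and the global difference from 18 h was 1.07 without 18 h control replicate 2 and 1.32 without global replicate 1, not past the threshold in either case. Without 24 h control replicate 1 the hypodermal difference was 1.03 and not past the threshold. The annotated gene R12H7.4 overlaps asp-4 on the opposite strand without sharing coding bases.

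The genes asp-3 and asp-6 were low in global depletion. The gene asp-3, the other protease with a role in necrosis, lies on chromosome X at 6791064 to 6792715, plus strand, with 4 exons. The 24 h controls read 2858 and 2350 CPM and the global libraries 1589 and 1613 CPM, with 2002 and 2347 CPM at 18 h and 1962, 2149 and 2935 CPM after hypodermal depletion. Both global libraries were below the other 7. The log2 fold change of asp-3 against the 24 h controls was −0.70 (SE 0.22) in global and −0.15 (SE 0.20) in hypodermal depletion.

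The gene asp-6 lies on chromosome V at 8267511 to 8268937, minus strand, with 3 exons. The 24 h controls read 3332 and 2695 CPM, the global libraries 1868 and 1806 CPM, the 18 h controls 2219 and 3079 CPM and the hypodermal libraries 1909, 2085 and 3194 CPM. Again both global libraries were the lowest of the 9. The log2 fold change of asp-6 was −0.71 (SE 0.23) in global and −0.33 (SE 0.20) in hypodermal depletion. The asp-3 and asp-6 differences in global depletion were −0.57 and −0.56 without 24 h control replicate 1, and neither was past the threshold then, nor without hypodermal replicate 2 or either global library.

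The gene asp-14, on chromosome X at 6444189 to 6446664, minus strand, with 7 exons, was the one member with its lowest group mean in hypodermal depletion. It read 231, 209 and 339 CPM there, against 490.1 and 326 CPM in 24 h controls, 346 and 346 CPM in global depletion and 306 and 308 CPM at 18 h. Hypodermal replicate 3 lay above 24 h control replicate 2, so these groups overlapped, whereas all 3 hypodermal libraries lay below both global libraries. The log2 fold change of asp-14 against the 24 h controls was −0.65 (SE 0.22) in hypodermal and −0.23 (SE 0.24) in global depletion.

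The 3 remaining genes were lower in global depletion by their estimates and close to the 24 h controls in hypodermal depletion. For asp-1, on chromosome V at 19049461 to 19050825, the 24 h controls read 8889 and 6638 CPM and global depletion 6303 and 5502 CPM, a log2 fold change of −0.39 (SE 0.22). Its hypodermal libraries read 7262, 6553 and 9829 CPM, on both sides of the controls, with an estimate of 0.02 (SE 0.20). For asp-2, on chromosome V at 9203077 to 9204734, the estimates were −0.62 (SE 0.22) in global and −0.28 (SE 0.20) in hypodermal depletion. For asp-5, on chromosome V at 8272375 to 8274046, they were −0.45 (SE 0.23) and −0.14 (SE 0.21). The asp-1, asp-2 and asp-5 global libraries lay below both 24 h controls, and the hypodermal libraries of all 3 genes overlapped them.

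In global depletion 3 of the 8 genes, asp-3, asp-6 and asp-13, were lower past the threshold of an edgeR adjusted p of 0.05. Over all 8026 genes tested 8.45% were past it in this comparison, and 5.01% in the lower direction. The groups did not overlap for 7 of the 8 genes, of which 6 were lower and asp-4 was higher. Of all genes, 25.1% were lower and 25.2% higher without overlap. The median log2 fold change of the 8 genes was −0.54, beside 0.01 over all genes. In hypodermal depletion asp-4 and asp-13 were higher past the threshold, where 5.05% of all genes were past it and 1.66% in the higher direction. The same 2 genes were the ones whose groups did not overlap, beside 18.6% of all genes higher and 16.4% lower without overlap. The median of the 8 genes was −0.14, beside 0.03 over all genes. Since the choice of genes used these comparisons, nothing is read from these shares. The 2 comparisons share the 24 h controls.

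**Figure D3:**
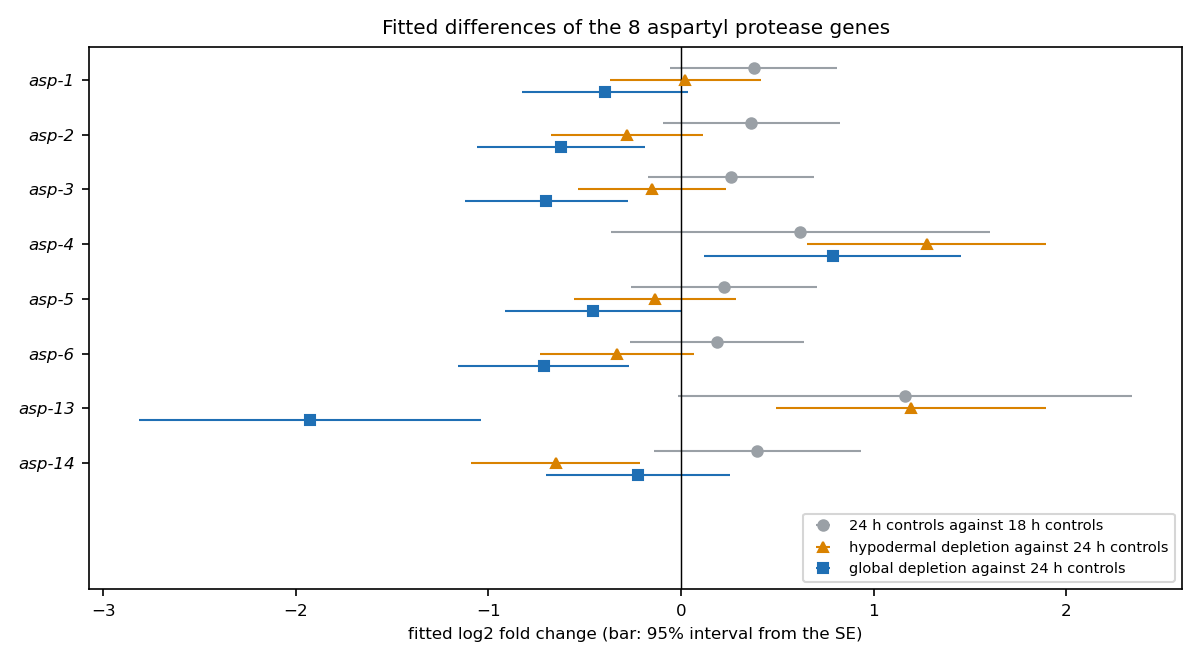
Fitted log2 fold change of each of the 8 genes, with bars for its normal 95% interval from the SE, for the 24 h against the 18 h controls (grey circles) and for hypodermal (orange triangles) and global depletion (blue squares) against the 24 h controls. The asp-13 estimates of the depletions lie on opposite sides of 0, at 1.19 and −1.93, and those of asp-4 lie on the same side, at 1.28 and 0.79.

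Between the depletions, asp-13 was past the threshold and the other 7 genes were not, where 4.42% of all genes were past it and 2.99% were higher in hypodermal depletion. As asp-13 was chosen for its opposite movement, nothing is read from this call. The estimates of hypodermal over global depletion were between 0.32 and 0.55 for asp-1, asp-2, asp-3, asp-4, asp-5 and asp-6 and −0.43 for asp-14. By levels, 4 genes were higher in hypodermal depletion without overlap, asp-1, asp-3, asp-6 and asp-13, beside 16.9% of all genes, and asp-14 was lower, beside 15.6%. Against the 18 h controls, asp-4 was past the threshold and higher in global depletion, where 14.6% of all genes were past it and 5.99% in the higher direction. In hypodermal depletion asp-4 and asp-13 were past it against the 18 h controls, both higher, where 13% of all genes were and 5.46% in the higher direction. The asp-13 estimate against 18 h was 2.36 (SE 0.50) in hypodermal depletion and −0.76 (SE 0.66) in global depletion.

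The makeup of the aspartyl protease total, taken as each gene's share of the summed CPM of the 8 genes, separated depleted libraries from controls for 3 genes. The share of asp-1 was between 45% and 48.9% in the 4 controls and between 50.3% and 55.6% in the 5 depleted libraries. The share of asp-6 was between 18.3% and 21.2% in the controls and between 14.6% and 16.7% in the depleted libraries. The share of asp-4 was between 0.167% and 0.489% in the controls and between 0.829% and 1.15% in the depleted libraries. For asp-14 the groups parted differently, with 1.6% to 1.78% in hypodermal depletion, 2.12% to 2.7% in the controls and 2.96% to 3.18% in global depletion. The share of asp-13 was 0.759% to 1.13% in hypodermal depletion, 0.125% to 0.438% in the controls and 0.0644% to 0.229% in global depletion. How many of all genes part the depleted libraries from the controls was not counted, so nothing is read from the count of 3. The controls were also the less deep libraries, and the asp-4 control shares rest on 4 to 34 counts. Shares of 1 total depend on each other, so these ranges add no separate evidence to the levels.

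**Figure D4:**
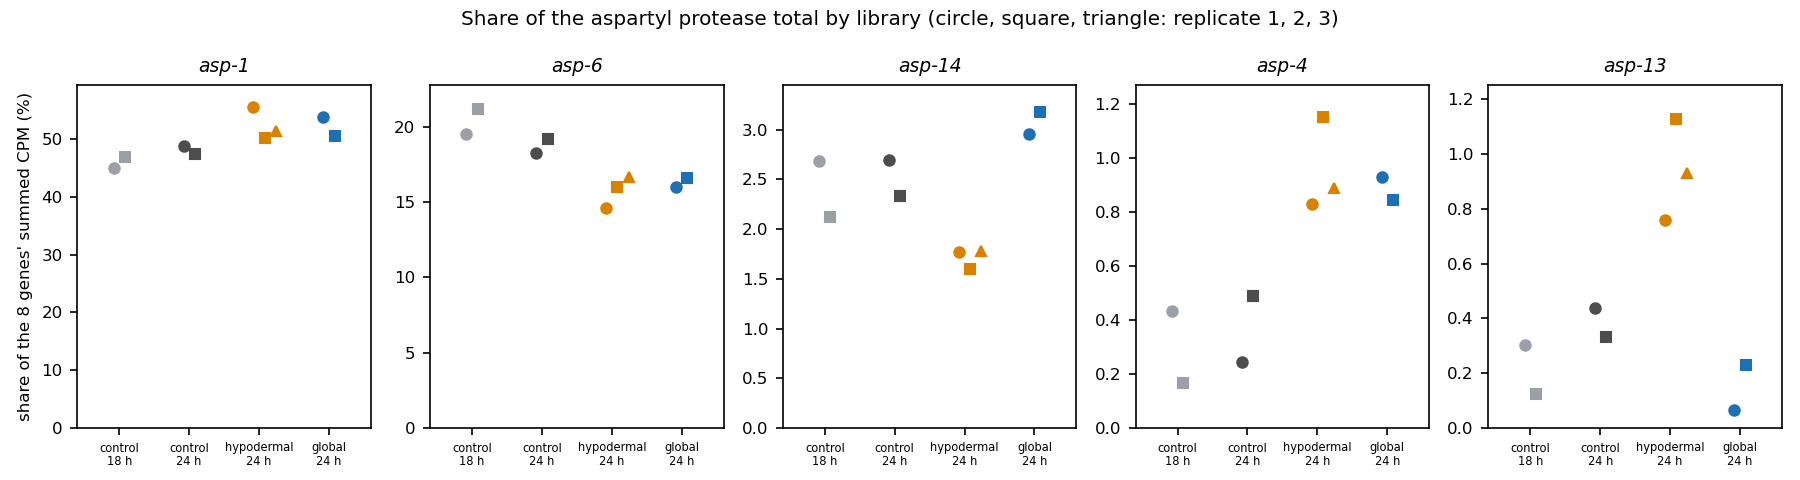
Share of the summed CPM of the 8 aspartyl protease genes held by asp-1, asp-6, asp-14, asp-4 and asp-13 (percent, linear axes from 0) in each library, by group. The asp-4 shares of the 5 depleted libraries, at 0.829% and above, lie over those of the 4 controls, at 0.489% and below, and the asp-14 shares are lowest in hypodermal and highest in global depletion.

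In 2 of the 4 groups most of the 8 genes were highest in the same library. Hypodermal replicate 3 had the highest level of its group for 8 of 8 genes, and 24 h control replicate 1 was the higher of its pair for 7 of 8, with asp-4 the exception. The other groups showed no such pattern, as global depletion split 4 and 4 and 18 h control replicate 2 was the higher for 5 of 8. The summed level was 19083 CPM in hypodermal replicate 3 against 13061 and 13032 CPM in replicates 1 and 2, and 18169 against 14002 CPM in the 24 h controls. The summed level of 17 intestine markers, of which elt-4 was unlisted, was also highest in hypodermal replicate 3, at 7492 CPM against 5640 and 5659 CPM, and in 24 h control replicate 1, at 9060.5 against 6985 CPM. In these 2 groups the summed level of body wall muscle markers was lowest in the libraries where the proteases were highest, at 35506 CPM in hypodermal replicate 3 against 47916 and 42365 CPM, and at 36455 against 44780 CPM in the 24 h controls. In the other groups both sums were higher in the same library, with muscle markers at 48298 and 52238 CPM at 18 h beside 11355 and 14529 CPM for the proteases, and at 37803 and 33105 CPM in global depletion beside 11706 and 10894 CPM. Hypodermal replicate 3 was also the least deep library of its group, at 781648 counts against 2134185 and 1518298. The same held for 24 h control replicate 1, at 324321 against 506659. The part of depth and of tissue makeup in the protease levels was not tested. Over the 9 libraries the log2 levels of asp-3 had Pearson correlations of 0.926 with asp-6, 0.915 with asp-2 and 0.88 with asp-5, and those of asp-5 and asp-6 had 0.902. The levels of asp-4 had correlations between −0.423 and 0.444 with the other 7 genes. These are descriptions over libraries that share groups and differ in depth.

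The 24 h against the 18 h controls show how these genes differed with time in animals without depletion. This comparison was not used to choose the genes, although it shares the 24 h libraries. The estimates of all 8 genes were above 0, from 0.19 (SE 0.23) for asp-6 to 1.17 (SE 0.60) for asp-13, with a median of 0.37 beside 0.01 over all genes. In edgeR's quasi-likelihood test 0 of 8 passed, with adjusted p from 0.322 for asp-13 to 0.740 for asp-6, where 3.07% of all genes were past the threshold. At an unadjusted p under 0.05 the count was also 0 of 8, beside 1332 of all 8026 genes tested. DESeq2 gave 0 of 8 at the adjusted threshold. For 4 of the 8 genes the 24 h libraries lay above the 18 h libraries without overlap, beside 22.2% of all genes. The asp-13 levels rank among these, with 79.6 and 46.3 CPM at 24 h over 34.5 and 18.1 CPM at 18 h, and the 95% interval of its log2 difference ran from −0.01 to 2.34. For asp-1 it ran from −0.05 to 0.81. No change of these genes between the control times was detectable with 2 libraries a side at this depth.

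Of the 18 protein-coding genes that the annotation names asp or hrg-7, 12 were listed in at least 1 library, the 8 above among them. The gene hrg-7, which codes for a secreted cathepsin-like protein of heme signalling between tissues, rose with time, from 83.8 and 96.8 CPM at 18 h to 512 and 504 CPM at 24 h (log2 fold change 2.50, SE 0.31, edgeR adjusted p = 1.72e-07). It read 731 and 933 CPM in global depletion, a further rise (0.71, SE 0.22, edgeR adjusted p = 0.0348), and 430, 526 and 609 CPM in hypodermal depletion (0.03, SE 0.21, adjusted p = 0.965). The call in global depletion was lost without 18 h control replicate 1 (adjusted p = 0.06), either 24 h control (0.156 and 0.165) or either global library (0.0661 and 0.391). For asp-8 the edgeR estimates were 1.2 (SE 0.70) with time, 0.29 (SE 0.46) in global and −0.58 (SE 0.44) in hypodermal depletion, none past the threshold, and asp-17 had 5 counts in 1 library.

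The gene asp-12 sits between asp-6 and asp-5 on chromosome V, 272 bp from asp-6 and 328 bp from asp-5. It read 14.8 and 66.5 CPM at 18 h and 162 and 129 CPM at 24 h, a rise in edgeR (log2 fold change 1.90, SE 0.50, adjusted p = 0.0229). In hypodermal depletion it read 24.5, 26.1 and 37.6 CPM and in global depletion 28.6 and 46.5 CPM, all below both 24 h controls. Against the 24 h controls it fell by 2.34 on the log2 scale in hypodermal (SE 0.35, edgeR adjusted p = 3.69e-06) and fell by 1.95 in global depletion (SE 0.38, adjusted p = 0.000286). Against the 18 h controls its estimates were −0.44 (SE 0.53) in hypodermal and −0.05 (SE 0.54) in global depletion, neither past the threshold. Its flanking genes asp-6 and asp-5 had estimates of −0.33 and −0.14 in hypodermal and −0.71 and −0.45 in global depletion, so the estimates of asp-12 were farther from 0 than those of either neighbour. The differences between these genes were not tested. The asp-12 rise with time was not called without 18 h control replicate 1 (adjusted p = 0.287) or without either 24 h control (0.0895 and 0.0526). How shared reads were counted is not given in the sources used here, so the 3 levels are uncertain one by one if their sequences share reads.

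**Figure D5:**
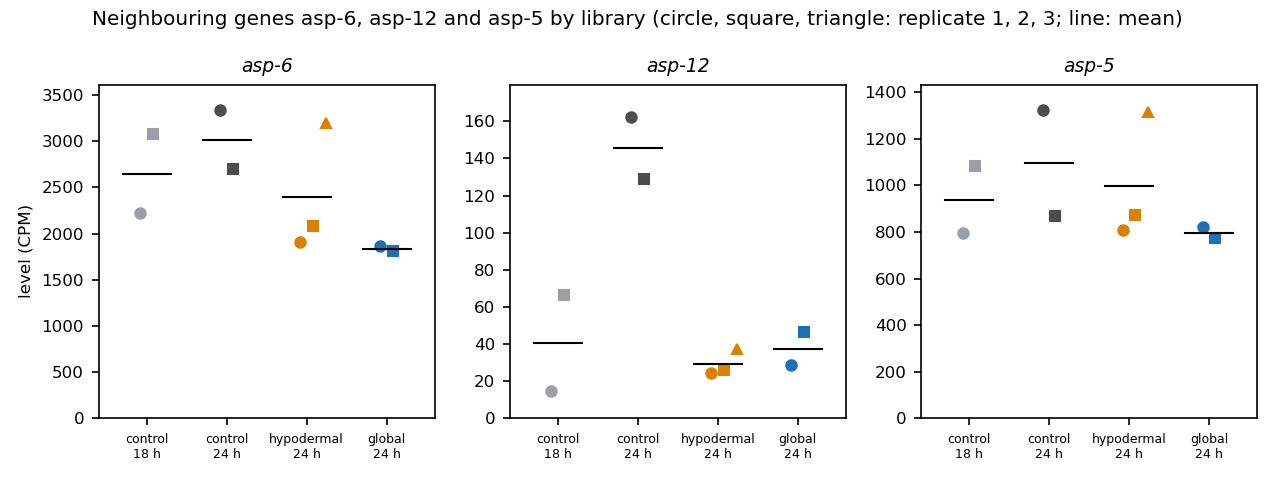
Levels of the neighbouring genes asp-6, asp-12 and asp-5 (CPM, linear axes from 0) in each library, by group, with a line at the group mean. The 24 h controls of asp-12, at 129 and 162 CPM, stand over its other 7 libraries, which reach 66.5 CPM, while the asp-6 and asp-5 libraries of hypodermal depletion overlap their 24 h controls.

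Across the 7429 tested genes with a mean of at least 10 CPM, the 5 whose log2 levels had the highest Pearson correlation with asp-13 over the 9 libraries were F38B6.4 (0.967), dld-1 (0.964), mccc-1 (0.954), drd-5 (0.949) and rrf-1 (0.943). Mean levels of F38B6.4 were 10.4 CPM at 18 h, 13.4 at 24 h, 37.9 in hypodermal and 5.0 in global depletion. For mccc-1, which codes for a subunit of methylcrotonyl-CoA carboxylase, they were 126.5, 131.6, 192 and 105.4 CPM, and for dld-1, which codes for dihydrolipoamide dehydrogenase, 217, 270.4, 299 and 218 CPM. All 5 had their highest group mean in hypodermal depletion, as asp-13 did. They were picked for likeness to asp-13 over these same libraries, so nothing is read from this shared group. The libraries share depth and group, and F38B6.4 was unlisted in 1 library and drd-5 in 2, so the values are descriptions.

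The cysteine cathepsins, which share the lysosome with the aspartyl proteases, were measured beside them. In global depletion 6 of 9 tested fell against the 24 h controls and 0 rose, with a median log2 fold change of −2.14. Of all genes, 8.45% were past the threshold there, 5.01% in the lower direction. The digestive protease gene cpr-4 fell by 2.91 (SE 0.24, edgeR adjusted p = 8.94e-13), from 655 to 86.9 CPM, and cpr-1 fell by 2.67 (SE 0.26, adjusted p = 3.87e-11). In hypodermal depletion, where 1.66% of all genes were past the threshold in the higher direction, 1 of 9 rose and 0 fell. That gene was cpl-1, a cathepsin L gene, which rose by 1.03 (SE 0.24, edgeR adjusted p = 0.00473). Its call in hypodermal depletion was lost without 24 h control replicate 1 (adjusted p = 0.226). Against the 18 h controls 4 of 9 cysteine cathepsins were lower in global depletion and 0 higher, with a median of −0.63. In hypodermal depletion 4 of 9 were higher than at 18 h and 0 lower, with a median of 0.75. Of all genes, 14.6% and 13% were past the threshold in these comparisons. Summed over the family, the cysteine cathepsins stood at 2312 and 2190 CPM in 18 h controls and 3488 and 3051 CPM in 24 h controls. In global depletion they stood at 1005 and 1041 CPM. The sum of the 8 aspartyl proteases was 18169 and 14002 CPM in 24 h controls against 11706 and 10894 CPM in global depletion. The smallest change among the 6 cysteine cathepsins that fell was −1.17 (cpl-1, not called without 24 h control replicate 2, adjusted p = 0.216), and the aspartyl protease estimates below 0 ran from −0.23 to −0.71 apart from asp-13 at −1.93. The difference between the 2 families was not tested.

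The V-ATPase subunits acidify the compartments where both families work. Against the 24 h controls they fell in 10 of 20 cases in global depletion and in 0 of 20 in hypodermal depletion, with medians of −0.81 and −0.33. Of all genes, 8.45% were past the threshold in global depletion, 5.01% in the lower direction, and 5.05% were past it in hypodermal depletion. Against the 18 h controls 16 of 20 were lower in global and 8 of 20 in hypodermal depletion, beside 14.6% and 13% of all genes past the threshold. The count of 10 was 2 without 24 h control replicate 1 and 3 without either global library. Examples are vha-13, which fell by 1.31 (SE 0.22, edgeR adjusted p = 2.13e-05), and vha-12, which fell by 1.16 (SE 0.23, adjusted p = 0.00028) and whose call was lost without 24 h control replicate 1 (0.0682). Of 23 other lysosomal hydrolases 2 fell in global depletion, namely aagr-4, a glucosidase-family gene, which fell by 2.52 (SE 0.65, adjusted p = 0.00738) and the lipase gene lipl-1, which fell by 2.01 (SE 0.55, adjusted p = 0.0117). In hypodermal depletion 1 of 23 passed, aagr-4, which fell by 1.77 (SE 0.55, adjusted p = 0.0487). Of 18 genes of the lysosome membrane and its biogenesis, lmp-1 fell by 0.84 in global depletion (SE 0.28, edgeR adjusted p = 0.048), and 0 passed in hypodermal depletion. Of 6 genes of necrotic cell death, the pathway in which asp-3 and asp-4 act, crt-1, which codes for the calcium store protein calreticulin, fell by 0.82 in global depletion (SE 0.21, edgeR adjusted p = 0.00719), and 0 passed in hypodermal depletion. The median of these 6 genes in global depletion was 0.19, above 0, so the fall of crt-1 was not that of the list. Calls of 1 or 2 genes in a list are not read as a change of the list. These calls of lipl-1, lmp-1 and crt-1 were each lost without either global library, and that of aagr-4 without global replicate 2 (adjusted p = 0.147) and, in hypodermal depletion, without either 24 h control, any hypodermal library or global replicate 2. The lipl-1 (0.0915) and crt-1 (0.0711) calls were lost too without 24 h control replicate 2, and that of lmp-1 without 24 h control replicate 1 (0.362) or hypodermal replicate 2 or 3 (0.0679 and 0.0508).

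Markers of the tissues that could supply these mRNAs were measured beside them. Of all genes, 8.45% were past the threshold in global depletion, 5.01% in the lower direction, and 5.05% were past it in hypodermal depletion. Counts of 1 or 2 markers are not read as a change of their tissue. Intestine markers fell in 5 of 16 cases in global depletion, among them nhx-2, which fell by 2.25 (SE 0.43, edgeR adjusted p = 0.000236), and pept-1, which fell by 2.00 (SE 0.25, adjusted p = 3.68e-08), and in 2 of 16 in hypodermal depletion, ifo-1, which fell by 0.82 (SE 0.22, adjusted p = 0.0163) and ifb-2, which fell by 0.68 (SE 0.19, adjusted p = 0.0239). Against the 18 h controls 10 of 16 intestine markers were lower in global and 6 of 16 in hypodermal depletion. Of all genes, 14.6% and 13% were past the threshold in these comparisons. Summed, intestine markers stood at 10369 and 12098 CPM at 18 h and 9060.5 and 6985 CPM at 24 h without depletion. They stood at 5640 to 7492 CPM in hypodermal and 5142 to 5418 CPM in global depletion, with elt-4 unlisted in all 9 libraries. The count of 5 was 2 without 24 h control replicate 1 and 3 without global replicate 2. The nhx-2 call was lost without 24 h control replicate 1 (adjusted p = 0.0595), that of ifo-1 without 24 h control replicate 2 (0.166) or hypodermal replicate 3 (0.0802), and that of ifb-2 without 24 h control replicate 1 (0.263) or hypodermal replicate 2 (0.126), and the hypodermal count of 2 was 0 with no filter on low counts. Without depletion ifb-2 was also lower at 24 h than at 18 h (log2 fold change −0.99, SE 0.22, edgeR adjusted p = 0.00432). In global depletion ifb-2 fell by 0.76 (SE 0.21, edgeR adjusted p = 0.015). Its change with time was −0.79 without 18 h control replicate 1 or without 24 h control replicate 2. Hypodermis markers fell in 2 of 10 cases in each depletion, and body wall muscle markers in 1 of 11 in global and 0 in hypodermal depletion. Pharynx markers (6 tested) and neuron markers (10 tested) gave 0 calls in either depletion in edgeR, and 1 of 6 germline markers rose in hypodermal depletion. The part of these tissues in the protease levels was not tested.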

How the data were processed

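The authors deposited 1 table of unnormalized counts, whole numbers for coding sequence by gene, whose lowest entry is 3. The submitters' processing notes name the build WBcel235 and DESeq2. Not given in the sources used here are the aligner, the counter, its use of strand and how it treated shared reads. Of 10 libraries named in it, 1 could be matched to no sample and was not used. Coordinates are those of the deposited table. Gene neighbours and coding lengths came from an Ensembl 115 annotation of WBcel235, and for asp-1, asp-5 and asp-13 the length came from another transcript of the gene than the one in the table. Unlisted counts were entered as 1.

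The comparisons used edgeR 4.0.16 (R 4.3.3): filterByExpr (minimum count 10, minimum total 15, 8026 genes kept), TMM factors and 1 robust quasi-likelihood fit with group terms over the 9 libraries, at a Benjamini-Hochberg adjusted p of 0.05. The biological coefficient of variation was 0.203. CPM values carry the TMM factors. Correlations used log2(CPM + 1). Levels between genes were compared per kilobase of coding length. The scripts were tested on simulated data. Alternatives were other scalings, filters and values for unlisted counts, DESeq2 1.42.0, a replicate block, fits of the compared groups alone, thinned libraries and leaving out each library.

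The members and lists were chosen with earlier results of these data known. All 8 members are named, the other asp genes by level, from each pathway list and the intestine markers the 2 called genes with the largest absolute change per depletion, and the 5 genes most like asp-13. Summed levels, cpl-1 in global depletion, the cysteine cathepsins between the depletions and the counts of the other tissue lists stand outside that rule. So do the lists set against the 18 h controls, and ifb-2 with time and in global depletion. All of these were added with their values in view.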

Additional observations from a re-analysis of the deposited data

Results flagged for a closer look

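The difference of asp-13 between the depletions, 3.12 on the log2 scale (hypodermal over global depletion), stands out because the 3 hypodermal libraries lie above the mean of the 24 h controls and both global libraries lie below it. The gene was chosen for this opposite movement, so the difference is a description with no p-value, and both depletions are set against the same 2 control libraries. The part of depth and of tissue makeup in it was not tested. A difference of this size was not particular to asp-13. Of 9 cysteine cathepsins tested, 6 were past the threshold and higher in hypodermal over global depletion and 0 lower, beside 2.99% of all genes higher. Among them were cpr-4 at 3.325 and cpr-1 at 3.149. Against the 24 h controls cpl-1 also had estimates on opposite sides of 0, 1.03 in hypodermal and −1.17 in global depletion.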

How the results depend on the processing

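In global depletion against the 24 h controls the count of 3 genes past the threshold was 1 (asp-13) with unlisted counts as 0, with library totals alone and with no filter, and 0 with libraries thinned to the shallowest. Leaving out 1 library gave 0 to 4, with 0 without 24 h control replicate 1 or global replicate 1, and 1 without hypodermal replicate 2 or global replicate 2. In hypodermal depletion the count of 2 was 1 (asp-4) with unlisted counts as 0 and in DESeq2, 0 in thinned libraries, and 1 to 3 when 1 library was left out. The replicate block gave 1 there, asp-14, which was lower, in place of the 2 higher genes. The deviations of same-numbered libraries from their group means had correlations from −0.0661 to 0.112 over 7430 genes. In a group of 2 the deviations mirror each other, so this check cannot exclude pairs or a batch. The numbers were not taken as pairs in the main fit. Between the depletions the log2 difference of asp-13 ran from 2.27 to 4.18 over 18 alternatives, which supports nothing, as the gene was chosen for it. Between the controls the count of 0 was 1 (asp-1) with no filter, and 0 when any 1 library was left out. Against the 18 h controls the global count of 1 was 0 in DESeq2 and 0 to 1 when 1 library was left out, and the hypodermal count of 2 was 4 with no filter and 2 when any 1 library was left out. Library totals alone moved the median of all genes in global depletion from 0.01 to 0.11, and unlisted counts as 0 moved it between the controls to 0.24. RLE size factors left 2 of 8 genes above 0 in hypodermal depletion, where TMM gave 3, as asp-1 changed sign. Depth limits asp-4 and asp-13 most, with control counts from 3 to 34.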
